A study of Homo sapiens with 12 samples.

Results

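LSD1 shRNA was compared with its own scramble shRNA in MDA-MB-231 cells, an established human breast cancer line of the triple-negative and mesenchymal kind. The comparison uses 6 of the 12 arrays of the series: 3 arrays of cells with LSD1 shRNA (replicates 1, 2 and 3), and 3 arrays of cells with a scramble shRNA whose titles tie them to the LSD1 experiment (replicates A, B and C). All 6 samples received shRNA by lentiviral particles. The other 6 arrays (HDAC5 shRNA, and a scramble set with no tag) were used for a single comparison of the leading genes. The design has 1 shRNA treatment for LSD1, so loss of LSD1 and any other effect of that shRNA cannot be told apart. The labels call the replicates biological without saying what separates them, so the p-values measure the spread between these samples, which may be technical. Probe sets with 1 gene symbol were used, and each gene was read from its probe set of highest mean signal, which gave 11963 genes from 22277 probe sets.

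LSD1, whose gene is KDM1A, is an amine oxidase that removes methyl groups from histone lysines. It works in a complex with the scaffold protein CoREST and the deacetylases HDAC1 and HDAC2, and DNA-binding factors such as REST and SNAI1 bring that complex to genes that are kept silent. The question that this comparison addresses is which classes of genes are expressed at other levels in these cells when LSD1 is depleted.

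All values are log2 expression values, so a difference of 1 is a 2-fold change. Array medians were between 7.05 and 7.15, and the lower quartile of the arrays, used here as a mark of low signal, was between 5.18 and 5.27. No background level was estimated, so a value above this mark does not show that a gene is expressed. Pairs of scramble arrays correlated at 0.9945 to 0.9977 over all probe sets, pairs of LSD1 shRNA arrays at 0.9908 to 0.9968, and pairs across the groups at 0.9804 to 0.9902. LSD1 shRNA array 2 stood apart: 218 genes lay more than 2-fold from the mean of the other two arrays of its group, 180 of them higher, against 23 genes for array 1 and 60 for array 3. Among the scramble arrays, array A stood apart most, with 85 such genes, 76 of them lower, against 26 for B and 16 for C. For RNA quality, the ACTB control probe sets gave a 3′ minus 5′ difference of 1.30 ± 0.06 (SD, n = 3) with scramble and 1.43 ± 0.12 (SD, n = 3) with LSD1 shRNA (exact two-sided permutation p = 0.2, where 3 against 3 cannot go below 0.1). For the GAPDH control it was 0.01, -0.01 and 0.01 with scramble and 0.03, 0.02 and 0.07 with LSD1 shRNA, a difference of 0.04 with groups that did not overlap (exact two-sided permutation p = 0.1, n = 3 in each group). Of 15 markers of the line, such as VIM (vimentin), AXL and CAV1 (caveolin), all had scramble means above the lower quartile. Blood cell markers lay below it in 8 of 18 cases, the leukocyte gene PTPRC among them, and 0 of the 18 changed. In such bulk RNA, fewer cells of a kind and less RNA per cell cannot be told apart.

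The targeted gene checked the labels. With scramble, KDM1A read 9.61 (A), 9.76 (B) and 9.78 (C), and with LSD1 shRNA it read 6.48 (array 1), 6.81 (array 2) and 6.60 (array 3). The groups did not overlap, and array 2, which stands apart in other genes, had the highest remaining signal of the 3 by a small margin. The change was -3.08 (SE 0.11, limma adjusted p = 6.99e-05), an 8.48-fold reduction read from the 1 probe set that the array holds for this gene.

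The partners of LSD1 stayed closer to their scramble levels. Of 20 measured genes of the LSD1-CoREST complex and its recruiting factors, KDM1A and CTBP1, a corepressor gene, fell and 0 rose, where 2.00% of all genes tested fell and 2.93% rose. CTBP1 changed by -0.34 (SE 0.07, adjusted p = 0.0421), and it did not pass without any 1 array other than LSD1 shRNA 2, nor without the mean-variance trend or with centred arrays. PHF21A, which encodes the histone-reading subunit of the complex, read 8.91, 9.60 and 8.72 on LSD1 shRNA arrays 1, 2 and 3 against 8.63, 9.03 and 8.77 with scramble, and the groups overlapped. GSE1, HMG20B and ZMYM2, the other members with the widest spread between the LSD1 shRNA arrays, were likewise highest on array 2 (8.41, 9.97 and 8.89). Their adjusted p-values were 0.187, 0.984 and 0.205. Among 25 other lysine demethylases and subunits of the NuRD complex, KDM4D, a demethylase of another class, rose by 1.14 (SE 0.09, adjusted p = 0.00138), from 5.51, 5.37 and 5.58 to 6.70, 6.57 and 6.59. RBBP4, a histone-binding subunit, fell by 0.41 on the log2 scale (SE 0.08, adjusted p = 0.0437), a call that did not hold when any 1 of the 6 arrays was left out.

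Over all genes, 589 of 11963 passed the threshold (4.92%), 350 higher (2.93%) and 239 lower (2.00%) with LSD1 shRNA. The counts given below for each gene list are to be read beside these shares. All 589 had arrays that did not overlap between the groups, as did 27.0% of all genes tested. Increases were larger than decreases: 124 genes rose and 40 fell by at least 2-fold, and 44 rose and 5 fell by at least 4-fold. The median change was 0.76 among genes that rose, -0.61 among those that fell and 0.007 over all genes. The total depended on the arrays used. Leaving out scramble A, B or C gave 270, 111 and 104 genes. Leaving out LSD1 shRNA 1, 2 or 3 gave 150, 786 and 206. A gene is said to hold where it passed whichever 1 of the 6 arrays was left out, and of the 88 named genes that passed, 29 held. LSD1 shRNA 2 was needed for 3 of the 88, namely RBBP4, PSMB8 and CLDN7, whereas 33, 52 and 55 did not pass without scramble A, B or C. Without LSD1 shRNA 1 or 3, 56 and 40 did not pass. With scramble B and LSD1 shRNA 2 both left out, 51 of the 88 did not pass. Under the settings that keep all 6 arrays, 73 of the 88 passed wherever they were fitted, and with dim genes left out 74 of the 88 were fitted. With probe sets averaged per gene, HLA-E, LOXL2, COL6A2, SPARC, ADAM19, LGR5, CASP4, EGFR and RPL18 did not pass, and with each array centred on its median CTBP1, DIABLO, NDUFA8, NDUFS1, COX6A1 and RPL18 did not.

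Expression levels were examined for genes that changed by at least 2-fold. Starting levels are given for the increases and end levels for the decreases. Of the 124 genes that rose by at least 2-fold, 49 had a scramble mean below 5.18, the lowest of the scramble arrays' lower quartiles, so the sizes of those increases are not exact. Of the same 124 genes, 75 ended above every LSD1 shRNA array's median. All genes were also ordered by their mean level over the 6 arrays, which mixes start and end, and cut into 4 groups of like size. From the lowest to the highest group, 2-fold increases numbered 36, 57, 26 and 5, and 2-fold decreases 3, 14, 17 and 6. A gene of the lowest signal has little room to fall by 2-fold, so the small number of decreases in the lowest group is partly fixed. Increases of this size thus lay mostly in the lower groups of expression, and 6 of the 40 decreases of this size ended below 5.24, the lowest of the LSD1 shRNA arrays' lower quartiles.

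**Figure D1:**
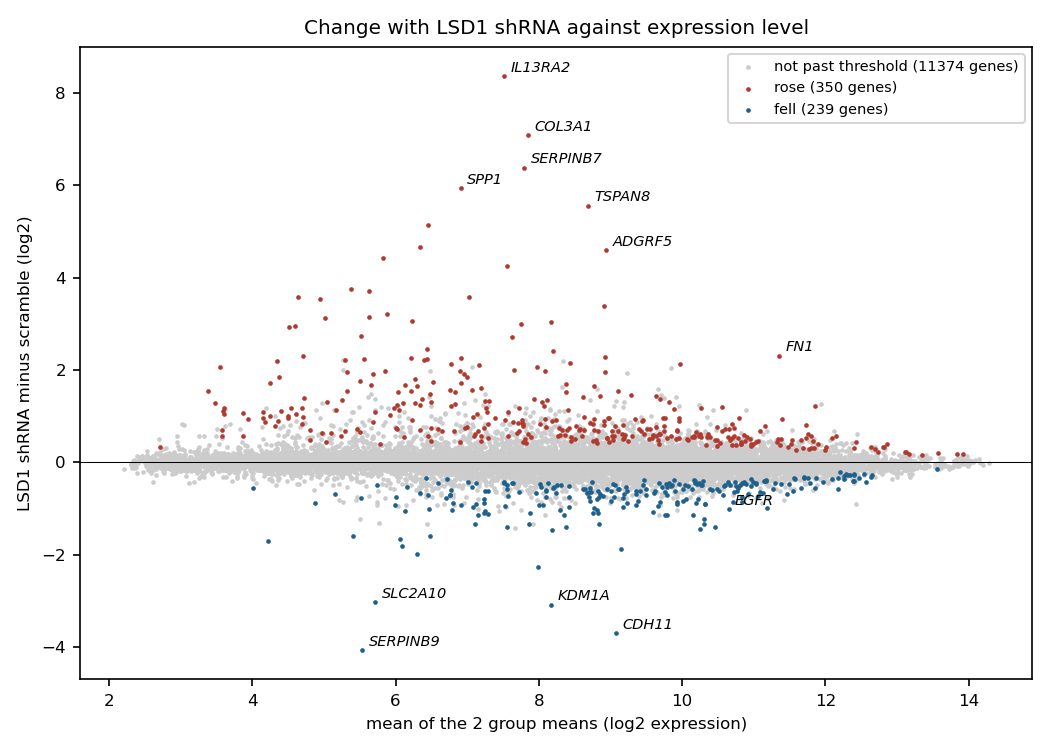
Change with LSD1 shRNA (LSD1 shRNA minus scramble, log2) against the mean of the group means (log2) for 11963 genes, 1 point per gene; red points rose (350 genes), blue points fell (239 genes), and grey points did not pass. The 44 increases of at least 4-fold reach 8.37, whereas the decreases of that size number 5 and reach -4.07.

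Among interferon-stimulated genes, 7 rose with LSD1 shRNA, and IFI44L had the largest change of them. This class encodes antiviral and regulatory proteins whose promoters carry an element read by interferon-activated factors. Of 45 measured members 38 did not pass and 0 fell. Changes were positive in 38 of the 45, and the median change was 0.43, compared with 0.007 over all genes. The 7 were IFI44L, IFI44, GBP1, ISG15, PARP12, TRIM5 and SAMD9. The 250 bases before the start of 3 of these genes and, for contrast, of the serpin gene SERPINB7, whose increase was larger still, are printed here because the interferon genes share an element and SERPINB7 lacks it. The sequences are from RefSeq (GRCh38.p14, plus strand for all 4): chr1:78620198-78620447 for IFI44L, chr1:78649539-78649788 for IFI44, chr1:1013247-1013496 for ISG15 and chr18:63752807-63753056 for SERPINB7. Capitals mark the interferon response element, a pair of GAAA blocks with any 2 bases between them, on either strand.
IFI44L: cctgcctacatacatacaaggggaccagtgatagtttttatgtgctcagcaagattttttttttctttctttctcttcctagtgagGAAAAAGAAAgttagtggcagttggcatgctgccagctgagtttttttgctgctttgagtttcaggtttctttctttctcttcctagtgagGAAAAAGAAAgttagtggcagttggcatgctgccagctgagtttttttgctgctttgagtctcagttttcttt
IFI44: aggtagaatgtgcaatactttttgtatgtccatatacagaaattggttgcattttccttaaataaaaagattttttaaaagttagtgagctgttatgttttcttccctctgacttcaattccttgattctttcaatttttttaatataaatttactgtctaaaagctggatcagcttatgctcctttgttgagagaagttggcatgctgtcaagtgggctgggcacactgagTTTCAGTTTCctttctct
ISG15: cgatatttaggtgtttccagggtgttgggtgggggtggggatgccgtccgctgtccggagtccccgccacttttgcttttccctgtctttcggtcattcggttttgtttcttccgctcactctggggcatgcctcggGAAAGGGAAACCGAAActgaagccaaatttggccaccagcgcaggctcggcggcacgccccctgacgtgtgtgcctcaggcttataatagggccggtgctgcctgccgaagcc
SERPINB7: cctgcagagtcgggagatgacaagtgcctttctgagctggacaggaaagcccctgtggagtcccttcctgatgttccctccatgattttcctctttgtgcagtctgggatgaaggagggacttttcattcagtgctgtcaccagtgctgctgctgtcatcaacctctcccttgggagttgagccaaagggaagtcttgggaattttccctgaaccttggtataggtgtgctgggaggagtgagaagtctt

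IFI44L holds the element at 2 places, with its first base at -164 and -73 relative to the gene's start, inside an exact repeat of 85 bases. In ISG15 the 2 matches, at -113 and -107, overlap, and in IFI44 the element lies on the minus strand at -18. Promoters were found for 9563 of the genes tested, and 2.56% of these held the element within 250 bases. All 7 interferon-stimulated genes that rose held it, and of the 35 members of the list with a promoter 65.7% did. Of the 267 genes that rose and had a promoter, 19 held it (7.12%), and of the 204 that fell, 4 did (1.96%). The 12 risers with the element outside the interferon list include the claudin gene CLDN7 and the cadherin gene CDH18, both described with their families. The E-box CAGGTG, the site of SNAI and ZEB repressors, stood in 16.0% of all promoters, 13.9% of those of genes that rose and 10.8% of those of genes that fell, and in 7 of the 19 promoters (36.8%) of the epithelial list. These 19 belong to list members whether or not they changed. Of the epithelial risers, CLDN7 held no E-box in this window, and the promoter of CDH1 was not available. The AP-1 site TGANTCA stood in 4.67%, 5.99% and 2.94% of all, rising and falling genes. SERPINB7 holds none of these 3 motifs in the printed stretch. A match describes letters in this window and shows neither binding nor a cause.

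On every LSD1 shRNA array IFI44L was far above scramble, with 8.47, 8.85 and 8.71 on arrays 1, 2 and 3 against 3.66, 4.35 and 4.00 on arrays A, B and C. The change was 4.67 (SE 0.19, adjusted p = 9.49e-05), from a level below the lower quartile. IFI44, its neighbour in the genome, went from 9.35, 9.05 and 9.09 to 10.26, 10.48 and 10.68, a change of 1.31 (SE 0.14, adjusted p = 0.00578). Both genes held. ISG15, which encodes a ubiquitin-like modifier, read 11.23, 10.77 and 10.77 with scramble and 11.77, 11.57 and 12.23 with LSD1 shRNA (0.93, SE 0.20, adjusted p = 0.0487). GBP1, a guanylate-binding GTPase gene, rose by 0.95 (SE 0.14), PARP12 by 0.82 (SE 0.12), the capsid-binding restriction factor gene TRIM5 by 0.75 (SE 0.13), and SAMD9, named after its value was seen, by 0.63 (SE 0.10). GBP1 did not pass without scramble B or C or LSD1 shRNA 1, PARP12 not without these or LSD1 shRNA 3, and ISG15 and TRIM5 not without any 1 array other than LSD1 shRNA 2. ISG15 also did not pass without the mean-variance trend. The number of list members that rose was 6, 2 and 2 without scramble A, B or C, compared with 2, 8 and 4 without LSD1 shRNA 1, 2 or 3, and it was 1 without both scramble B and LSD1 shRNA 2. The mean of the list relative to scramble was 0.45, 0.67 and 0.42 on LSD1 shRNA arrays 1, 2 and 3 and between -0.04 and 0.06 on the scramble arrays, so the 3 LSD1 shRNA arrays lay apart from the scramble arrays in this list.

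Genes upstream of this class and genes of antigen presentation included fewer risers. Of 28 nucleic acid sensors and interferon signalling genes, RIGI, the cytosolic RNA sensor gene, was the 1 that rose, from 7.90, 7.64 and 7.69 to 8.60, 8.71 and 8.57 (0.89, SE 0.10, adjusted p = 0.00855), and it did not pass without scramble B or C. IFIH1, which encodes another RNA sensor, read 6.89, 7.67 and 6.69 against 6.49, 6.24 and 5.92 (0.86, SE 0.27) and did not pass (adjusted p = 0.126). Of 28 antigen presentation genes 3 rose and 0 fell. PSMB9, an immunoproteasome subunit gene, went from 6.27, 6.48 and 6.12 to 7.69, 8.53 and 7.33 (1.56, SE 0.29, adjusted p = 0.0334), with the groups apart and array 2 highest. The further subunit gene PSMB8 changed by 0.73 (SE 0.15) and HLA-E by 0.54 (SE 0.10), and the HLA-E probe set can also match related HLA transcripts. The number of risers in this list was 0 without scramble A, B or C or LSD1 shRNA 1, 2 without LSD1 shRNA 2 and 1 without LSD1 shRNA 3. The promoters of RIGI, PSMB8 and PSMB9 held no match of the interferon element in these 250 bases.

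Inflammatory cytokine and NF-kB genes were highest on LSD1 shRNA array 2. The list mean was 0.81 on that array against 0.19 and 0.16 on arrays 1 and 3, and 0 of 38 members passed the threshold, and 10 had all 3 LSD1 shRNA arrays above all scramble arrays, as did 14.3% of all genes tested. PTGS2, the inducible cyclooxygenase gene, read 8.57, 10.41 and 9.30 on arrays 1, 2 and 3 against 5.84, 8.01 and 7.86 with scramble (adjusted p = 0.123). CXCL1, a neutrophil chemokine gene, read 7.73, 9.61 and 6.96 against 6.23, 5.87 and 6.03 (adjusted p = 0.111). Both sat above scramble on every array, with array 2 well above arrays 1 and 3. Without LSD1 shRNA 2, 3 members of this list rose and 1 fell, and with each array centred on its median 3 rose.

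The 12 largest increases came from unrelated families. IL13RA2, the gene of an interleukin-13 decoy receptor, read 3.78, 3.11 and 3.11 with scramble and 11.29, 12.12 and 11.70 with LSD1 shRNA (8.37, SE 0.26, adjusted p = 4.65e-05). COL3A1, the type III collagen gene, went from 3.47, 4.68 and 4.80 to 11.46, 11.21 and 11.51 (7.08, SE 0.34, adjusted p = 0.000273). Both went from below the lower quartile to well above the array medians on every LSD1 shRNA array. SERPINB7, a serpin gene of clade B, went from 4.66, 4.62 and 4.53 to 10.60, 11.13 and 11.23 (6.38, SE 0.17, adjusted p = 4.52e-05). SPP1, the gene of the matrix and cytokine protein osteopontin, read 3.67, 3.83 and 4.31 with scramble and 8.74, 10.40 and 10.49 with LSD1 shRNA (5.94, SE 0.46, adjusted p = 0.00152). Array 1 was the lowest of the LSD1 shRNA arrays for SPP1, and still far from the scramble arrays. TSPAN8, a tetraspanin gene, started above the lower quartile, at 6.33, 5.88 and 5.53, and reached 11.51, 11.54 and 11.35 (5.56, SE 0.20, adjusted p = 6.99e-05).

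EPB41L3, a gene of the band 4.1 linkers between membrane and cytoskeleton, read 4.13, 3.92 and 3.59 with scramble and 8.56, 9.70 and 8.79 with LSD1 shRNA (5.14, SE 0.30), and its further probe sets changed by 6.76 and 6.80. ADGRF5, an adhesion G protein-coupled receptor gene, had the widest spread of the 12, with 6.36, 7.75 and 5.82 against 11.25, 12 and 10.47 (4.60, SE 0.56, adjusted p = 0.00949). It did not pass without scramble C or LSD1 shRNA 1, and its further probe set changed by 3.58. The remaining members were NTS, the neurotensin gene (4.42, SE 0.28), RGS7, a regulator of G protein signalling (4.26, SE 0.29), the ubiquitin ligase gene RNF128 (3.76, SE 0.35) and the selenium transport protein gene SELENOP (3.70, SE 0.39), besides IFI44L. All 12 had the lowest LSD1 shRNA array above the highest scramble array, as the rule for naming them required, and all but ADGRF5 held. Probe sets disagreed for COL3A1, with changes of 6.49, 5.04 and 0.00 on 3 further ones, and for RGS7, whose further probe set was at -0.02.

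**Figure D2:**
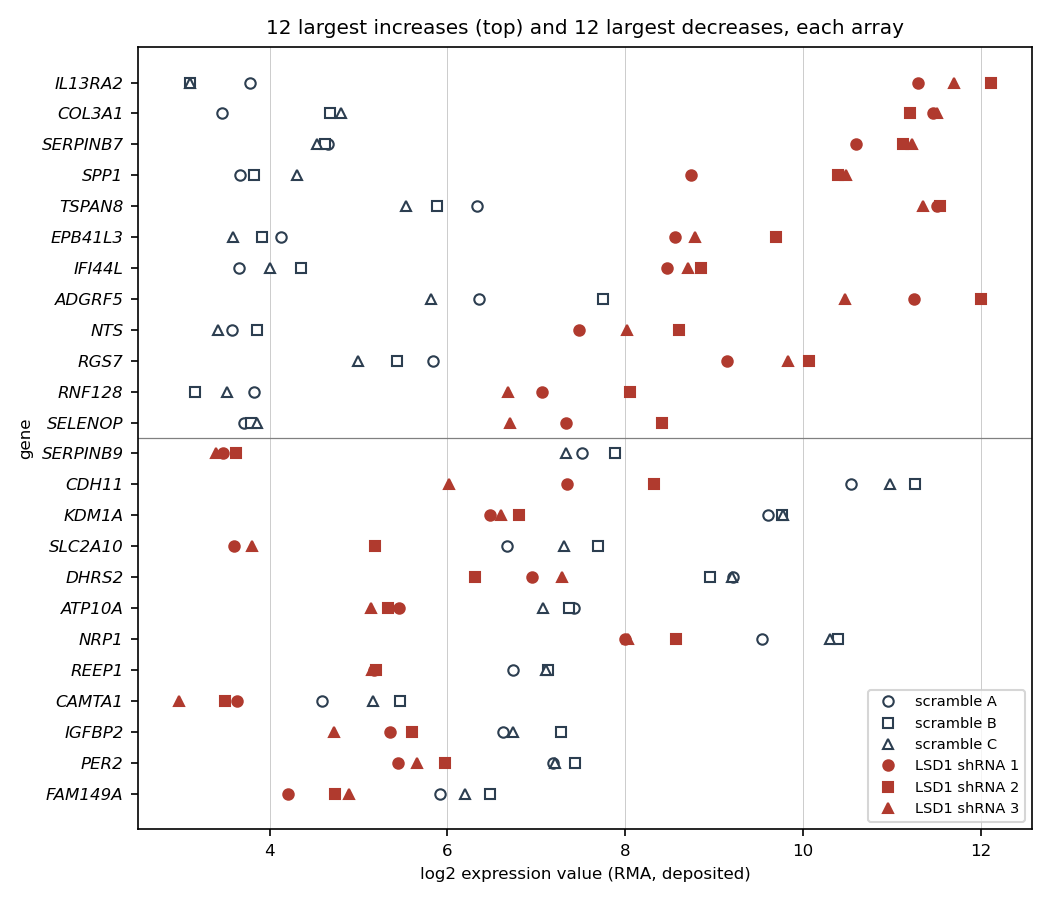
Log2 expression values on each of the 6 arrays for the 12 largest increases (top) and the 12 largest decreases (bottom), 1 row per gene; open symbols are scramble arrays A, B and C and filled red symbols LSD1 shRNA arrays 1, 2 and 3. IL13RA2 moves from 3.11 to 3.78 on scramble arrays to 11.29 to 12.12 with LSD1 shRNA, and SERPINB9 from 7.33 to 7.89 down to 3.40 to 3.62.

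Of the 12 largest decreases, SERPINB9, the gene of a granzyme B inhibitor, came first. It read 7.51, 7.89 and 7.33 with scramble and 3.48, 3.62 and 3.40 with LSD1 shRNA (-4.07, SE 0.15, adjusted p = 6.99e-05), which is below the lower quartile, and a further probe set of low signal was at -0.13. CDH11, the gene of the mesenchymal cadherin-11, read 10.54, 11.26 and 10.98 with scramble and 7.35, 8.33 and 6.02 with LSD1 shRNA (-3.70, SE 0.54, adjusted p = 0.0182). All 3 LSD1 shRNA arrays were over 2 units below every scramble array, but they spread widely among themselves. CDH11 did not pass without scramble A, B or C or without LSD1 shRNA 1, and its further probe set changed by -2.01. SLC2A10, a facilitative glucose transporter gene, went from 6.67, 7.70 and 7.31 to 3.60, 5.19 and 3.80 (-3.03, SE 0.45, adjusted p = 0.0186), with array 2 the highest of the LSD1 shRNA arrays. DHRS2, a short-chain dehydrogenase gene, went from 9.21, 8.95 and 9.20 to 6.95, 6.31 and 7.29 (-2.27, SE 0.24, adjusted p = 0.00574), with array 2 the lowest.

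NRP1, the gene of neuropilin, a receptor for semaphorins and VEGF, read 9.54, 10.39 and 10.31 with scramble and 8, 8.57 and 8.03 with LSD1 shRNA (-1.88, SE 0.26, adjusted p = 0.0165). The further decreases were in the lipid flippase gene ATP10A (-1.98, SE 0.13), REEP1, which shapes the endoplasmic reticulum (-1.81, SE 0.11), the transcription activator gene CAMTA1 (-1.70, SE 0.25), IGFBP2, which binds insulin-like growth factors (-1.66, SE 0.26), the circadian repressor gene PER2 (-1.59, SE 0.15) and FAM149A (-1.59, SE 0.21). Besides KDM1A, the genes SERPINB9, DHRS2, ATP10A, REEP1 and PER2 held. SLC2A10, NRP1 and CAMTA1 did not pass without scramble B or C or LSD1 shRNA 1 or 3, IGFBP2 not without any scramble array or LSD1 shRNA 1, and FAM149A not without scramble B or C. Further probe sets of ATP10A (-0.12), PER2 (0.13) and NRP1 (-0.73 and -0.07) did not pass, whereas that of REEP1 was at -2.19.

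Several families of secreted and surface proteins had a larger share of risers than all genes tested, of which 2.93% rose and 2.00% fell. These lists were chosen with earlier results of these data known. Their counts include SERPINB7, TSPAN8 and EPB41L3, which are among the largest increases of all genes. The larger shares are thus partly fixed by the choice of lists and do not set these families apart as classes. Their median changes were small, at 0.05 for serpins, 0.12 for tetraspanins and 0.02 for membrane skeleton linkers. Serpins, inhibitors of proteases, counted 5 up and 2 down of 23: besides SERPINB7 and SERPINB9, the clade B genes SERPINB5 (1.77, SE 0.22), SERPINB3 (1.68, SE 0.25) and SERPINB8 (0.89, SE 0.13) and SERPINF1 (1.23, SE 0.18) rose, and SERPINA1, the antitrypsin gene, named after its value was seen, fell by 0.69 on the log2 scale (SE 0.11). SERPINB5, the maspin gene, read 4.97, 4.71 and 4.19 with scramble and 6.29, 6.68 and 6.20 with LSD1 shRNA, so its groups lay apart from a level below the lower quartile. SERPINB3 has a close paralog whose transcripts its probe set can share. SERPINB7 and SERPINB9 held, SERPINB5 did not pass without scramble B or LSD1 shRNA 1, and SERPINB3, SERPINB8 and SERPINF1 did not without scramble B or C or LSD1 shRNA 1 or 3. Tetraspanins, which organise membrane protein webs, counted 3 up and 0 down of 24: TSPAN8, TSPAN13 (1.20, SE 0.17), which did not pass without scramble C or LSD1 shRNA 1, and TSPAN12 (1.13, SE 0.16), which did not without scramble B or LSD1 shRNA 1. Among 23 membrane skeleton linkers, EPB41L3 and the ankyrin gene ANK1 (1.10, SE 0.08) rose, and both held. All 6 probe sets of ANK1 rose, by 0.66 to 1.19.

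Called genes of the extracellular matrix rose more often than they fell, as did called genes over all genes tested (2.93% rose and 2.00% fell). Of 42 matrix glycoproteins and proteoglycans 5 rose and 0 fell: SPP1, MATN2, FN1, LUM and SPARC. FN1, the fibronectin gene, already had a high signal and read 9.47, 10.65 and 10.47 with scramble and 12.35, 12.95 and 12.22 with LSD1 shRNA (2.31, SE 0.33, adjusted p = 0.0178). MATN2, a matrilin gene, rose by 2.41 (SE 0.37), LUM, the gene of the proteoglycan lumican, by 1.54 (SE 0.23) from a level below the lower quartile, and SPARC by 0.67 (SE 0.09). Of these, SPP1 held. FN1 did not pass without scramble C or LSD1 shRNA 1 or 3, MATN2 not without scramble B or C or LSD1 shRNA 1, LUM not without scramble A or C or LSD1 shRNA 1 or 3, and SPARC not without any 1 array other than LSD1 shRNA 2. The number of risers was 3, 3 and 1 without scramble A, B or C, compared with 1, 5 and 2 without LSD1 shRNA 1, 2 or 3. Of 32 collagen genes, COL3A1, COL5A2 and COL15A1 rose and COL6A2 fell. Changes were negative in 18 of the 32, with a median of -0.01. COL5A2, a chain of type V collagen, went from 5.42, 4.46 and 4.72 to 6.78, 6.86 and 6.86 (1.97, SE 0.23, adjusted p = 0.00779) and did not pass without scramble C. COL15A1 changed by 1.08 (SE 0.16) and COL6A2, a type VI chain, by -0.89 (SE 0.17). COL15A1 did not pass without scramble A or C or LSD1 shRNA 1 or 3, and COL6A2 not without any 1 array other than LSD1 shRNA 2. LUM and ENG, the endoglin gene (0.93, SE 0.14), were the 2 risers among 23 fibroblast and endothelial markers, 8 of which had scramble means below the lower quartile. The mean of that marker list was 0.18, 0.20 and 0.10 on LSD1 shRNA arrays 1, 2 and 3 and between -0.01 and 0.01 on scramble arrays, and its part in the matrix result was not tested.

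Proteases and integrins included 4 named genes that passed, where 2.93% of all genes tested rose and 2.00% fell. Such small counts do not set these families apart from all genes. Of 33 matrix proteases and genes of the urokinase system, ADAM19 (0.73, SE 0.11) and the urokinase receptor gene PLAUR (0.68, SE 0.13) rose and ADAM9 fell (-0.69, SE 0.14). Of 23 integrins, ITGB2, the beta chain of leukocyte integrins, was the 1 that rose, from 6.19, 6.44 and 5.91 to 7.32, 7.81 and 7.03 (1.21, SE 0.22, adjusted p = 0.0317). None of these 4 genes held, and each passed without LSD1 shRNA 2.

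Epithelial and mesenchymal genes moved in both directions within their lists, where 2.93% of all genes tested rose and 2.00% fell. Of 33 genes of epithelial junctions and their regulators 4 rose and 1 fell. CDH1, the E-cadherin gene, read 3.99, 4.13 and 4.43 with scramble and 6.18, 6.31 and 6.71 with LSD1 shRNA (2.22, SE 0.17, adjusted p = 0.00144). CLDN7, a claudin gene of tight junctions, read 6.05, 7.43 and 7.33 with scramble and 9.01, 9.38 and 8.63 with LSD1 shRNA (2.07, SE 0.39, adjusted p = 0.0334). The 2 groups lay apart in both genes, from a level below the lower quartile in CDH1. CDH3, the P-cadherin gene, rose by 1.98 (SE 0.28) and CLDN1 by 1.37 (SE 0.29). CD24, a surface glycoprotein gene, fell by 1.46 on the log2 scale (SE 0.23, adjusted p = 0.0207), from 8.54, 9.09 and 9.10 to 7.62, 7.72 and 7.04, and all 6 of its probe sets fell, with changes from -0.46 to -1.50. CDH1 held, although a further probe set (0.20) did not pass. Without scramble B or C or LSD1 shRNA 1 none of CLDN7, CDH3, CD24 and CLDN1 passed, and the risers then numbered 1 in each case, compared with 2, 4 and 2 without scramble A, LSD1 shRNA 2 or LSD1 shRNA 3. Of 17 keratins, KRT15 (2.10, SE 0.35) and the simple epithelial keratin gene KRT8 (0.49, SE 0.07) rose, and neither held.

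Of 31 mesenchymal genes and factors of epithelial-mesenchymal transition, 2 rose and 2 fell. TCF4, a basic helix-loop-helix factor gene, read 4.10, 4.01 and 4.33 with scramble and 6.66, 7.31 and 6.70 with LSD1 shRNA (2.74, SE 0.19, adjusted p = 0.00109). It held, and 5 of its 6 further probe sets also rose, by 0.82 to 1.56. FN1 was the other riser. CDH11 and LOXL2, a lysyl oxidase gene (-0.47, SE 0.09), fell, and the further probe sets of LOXL2 were at -0.02 and 0.02. VIM and ZEB1, chosen for mention after their values were seen, changed by -0.15 (SE 0.04) and -0.10 (SE 0.08) and did not pass. Markers of luminal breast cells included 1 riser of 22, KRT8. AGR2, the member with the largest change, ranged from 8.83 to 11.34 with scramble and from 11.06 to 11.93 with LSD1 shRNA, so that its groups overlapped (adjusted p = 0.348).

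Cadherins and protocadherins, which bind cells of a kind to each other, counted 5 up and 1 down of 32. Besides CDH1 and CDH3, the neural cadherin genes CDH18 (2.46, SE 0.32) and CDH10 (0.95, SE 0.15) and the protocadherin gene PCDH9 (1.04, SE 0.12) rose, and CDH11 fell. CDH18 read 4.40, 5.53 and 5.69 with scramble and 7.51, 7.78 and 7.72 with LSD1 shRNA, and array A, at 4.40, was the low one among the scramble arrays. PCDH9 held. CDH18 did not pass without scramble B or LSD1 shRNA 1 or 3, and CDH10 not without any 1 array other than LSD1 shRNA 2. The risers numbered 3, 2 and 3 without scramble A, B or C, compared with 3, 6 and 3 without LSD1 shRNA 1, 2 or 3. In 16 of the 32 genes the scramble mean lay below the lower quartile.

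Among 36 neuronal genes that REST is known to silence outside neurons, 3 rose, 1 fell and the median was 0.02. Over all genes tested 2.93% rose and 2.00% fell. SCN3A, a voltage-gated sodium channel gene, read 5.02, 5.55 and 5.15 with scramble and 8.55, 9.30 and 8.61 with LSD1 shRNA (3.58, SE 0.23, adjusted p = 0.000932). SYT1, the gene of the synaptic calcium sensor synaptotagmin, went from 5.77, 6.53 and 6.49 to 8.63, 9.58 and 8.75 (2.72, SE 0.30, adjusted p = 0.00683). SCG2, the secretogranin gene of dense-core vesicles, went from 5.49, 5.29 and 5.10 to 7.26, 7.84 and 7.41 (2.21, SE 0.17, adjusted p = 0.00152). All 3 held, with array 2 the highest each time, and REEP1, the 1 that fell, held as well. In 16 of the 36 genes the scramble mean lay below the lower quartile. REST itself, named after its value was seen, fell by 0.55 on the log2 scale (SE 0.10, adjusted p = 0.0289), from 8.96, 9.04 and 8.96 to 8.47, 8.53 and 8.30. Among 47 axon guidance genes, SEMA3A, a semaphorin ligand gene, rose by 1.18 (SE 0.13) and held, while its receptor gene NRP1 fell.

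Signalling genes changed singly, in lists to be set beside the 2.93% of all genes tested that rose and the 2.00% that fell. Of 29 cytokine receptors, IL13RA2 and IL27RA (0.70, SE 0.12) rose. Of 41 Notch and Wnt pathway genes, RNF43 and LGR5, a ubiquitin ligase and a receptor that tune Wnt signals, rose by 1.57 (SE 0.09) and 1.17 (SE 0.23), and the Wnt receptor gene FZD4 rose by 0.87 (SE 0.13). RNF43 read 5.97, 5.92 and 6.01 with scramble and 7.41, 7.65 and 7.56 with LSD1 shRNA, with little spread within either group, and it held. EGFR, the gene of the epidermal growth factor receptor and a marker of this cell line, went from 11.16, 11.29 and 11.03 to 10.14, 10.34 and 9.93 (-1.02, SE 0.13, adjusted p = 0.00962). It did not pass without scramble B or LSD1 shRNA 1, nor with the mean of its probe sets. BMP4, a bone morphogenetic protein gene, was the 1 of 36 TGF-beta pathway genes that rose (0.92, SE 0.18). CASP4, an inflammatory caspase gene (0.99, SE 0.20), and DIABLO, which counters inhibitors of apoptosis (0.44, SE 0.07), rose among 30 apoptosis regulators. ALDH1A3, a retinal dehydrogenase gene, fell by 1.13 on the log2 scale (SE 0.19) and with DHRS2 made the 2 decreases among 29 genes of retinoid and aldehyde metabolism. Among these genes, those other than IL13RA2, RNF43 and DHRS2 did not hold: each failed without scramble B and without LSD1 shRNA 1, and all but EGFR without scramble C.

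Among housekeeping and stress lists, oxidative phosphorylation had the most changed genes. Of its 35 members 4 rose by small amounts, COX5B (0.52, SE 0.07), NDUFA8 (0.40, SE 0.08), NDUFS1 (0.38, SE 0.08) and COX6A1 (0.17, SE 0.03), but none of them held. The list had 1, 1 and 0 risers without scramble A, B or C, then 0, 5 and 0 without LSD1 shRNA 1, 2 or 3, and 1 with each array centred on its median. RPL18 was the 1 of 30 cytosolic ribosomal protein genes that fell (-0.15, SE 0.03), and it passed neither with centred nor with quantile-normalized arrays. MAGEA6 was the 1 of 26 cancer-testis antigens that fell (-0.33, SE 0.06), and its probe set can also match other genes of that family. In the lists of hypoxia and glycolysis (35 genes), cholesterol and fatty acid synthesis (25), the integrated stress and unfolded protein response (39), CDK inhibitors and p53 targets (25), lysosome and autophagy (33) and immediate early and KLF factors (35), 0 genes passed by limma. Cholesterol genes differed more between the scramble arrays than between the groups, with list means of -0.48, 0.29 and 0.19 on arrays A, B and C. Stress genes were high on LSD1 shRNA array 2 alone, at 0.44 against -0.10 and -0.03 on arrays 1 and 3. GDF15, a stress-induced cytokine gene, read 9.48, 11.26 and 9.85 on arrays 1, 2 and 3 against 7.30, 9.18 and 8.31 with scramble (adjusted p = 0.119), highest on array 2 in its group and on array B in the other.

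**Figure D3:**
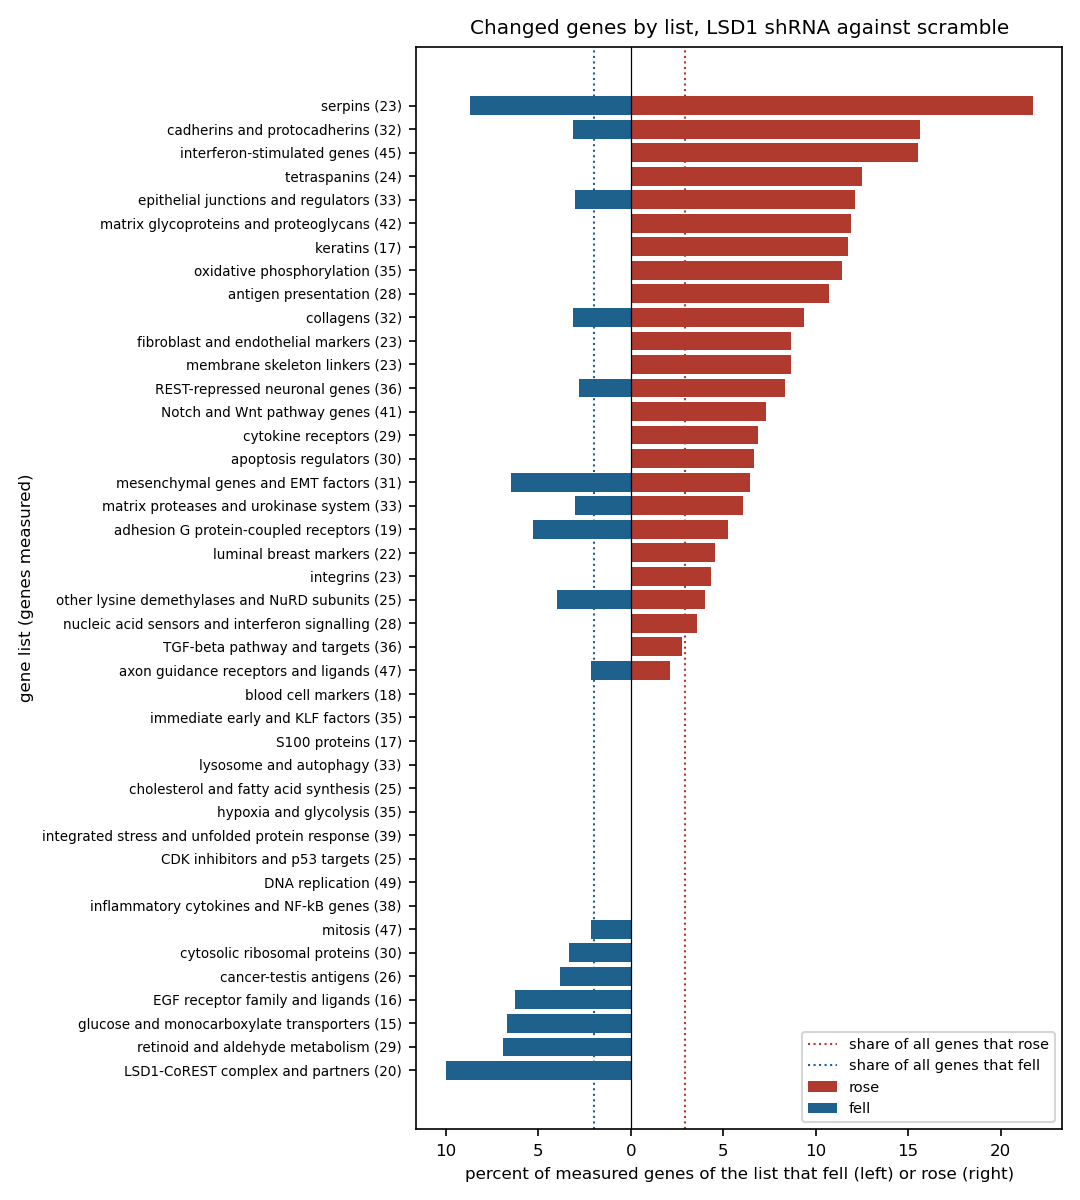
Percent of the measured genes of each list that rose (red, to the right) or fell (blue, to the left) with LSD1 shRNA, with the number measured in brackets. Of the 43 lists, that of the MDA-MB-231 line markers is not shown. Dotted lines mark the share of all genes that rose (2.93%) and fell (2.00%). Serpins, cadherins and interferon-stimulated genes reach the furthest to the right, with 5 of 23, 5 of 32 and 7 of 45 genes.

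Genes of DNA replication and mitosis separated LSD1 shRNA array 2 from the rest. Relative to scramble, the mean of 49 replication genes was -0.07, -0.71 and -0.02 on LSD1 shRNA arrays 1, 2 and 3, and that of 47 mitosis genes -0.06, -0.69 and -0.23, while scramble arrays lay between -0.08 and 0.09. RRM2, a subunit gene of ribonucleotide reductase, read 12.36, 10.99 and 12.58 on arrays 1, 2 and 3 against 12.93, 12.73 and 12.97 with scramble (adjusted p = 0.236). CCNE2, the gene of an S-phase cyclin, read 11.01, 9.29 and 10.75 against 10.56, 10.60 and 10.70. Arrays 1 and 3 were thus above every scramble array in CCNE2 and array 2 more than 1 unit below them all. The helicase subunit gene GINS2 (9.98, 8.55 and 10.10) and the origin licensing gene CDC6 (10.02, 8.75 and 10.04) were also lowest on array 2. In mitosis, KIF20A, a kinesin gene of cytokinesis, read 11.11, 9.99 and 10.86 against 11.70, 11.23 and 11.32, and CDC25A, CDC20 and CDCA8 were likewise lowest on array 2 (8.21, 10.26 and 9.36).

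Of the 49 replication genes 0 passed by limma and 42 had a negative change (median -0.28). Of the 47 mitosis genes 1 fell, 44 were negative and the median was -0.31. Without LSD1 shRNA 2 the medians were -0.08 and -0.14, with 1 replication gene up and 1 down and 3 mitosis genes down. The shift in both lists was thus smaller without that array. Replication means on arrays 1 and 3 were -0.07 and -0.02, close to the scramble arrays, which ranged from -0.02 to 0.02. In mitosis the mean of array 3 was -0.23, beyond the scramble arrays, and that of array 1, at -0.06, lay among them (-0.08 to 0.09). All 3 LSD1 shRNA arrays lay below all scramble arrays in 18 replication genes and 17 mitosis genes, compared with 12.7% of all genes tested. CCNA2, the cyclin A2 gene, was the mitosis gene that fell, from 10.69, 10.73 and 10.91 to 10.14, 9.53 and 9.94 (-0.90, SE 0.16, adjusted p = 0.0305). It was below scramble on arrays 1 and 3 also, and it did not pass without any 1 array other than LSD1 shRNA 2. In contrast, the means of interferon-stimulated, matrix and epithelial genes were above scramble on arrays 1 and 3 as well as on array 2. The median changes of these lists were 0.43, 0.10 and 0.04. The epithelial median was -0.01 with quantile-normalized or with centred arrays, so the mean of that list does not describe most of its members.

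**Figure D4:**
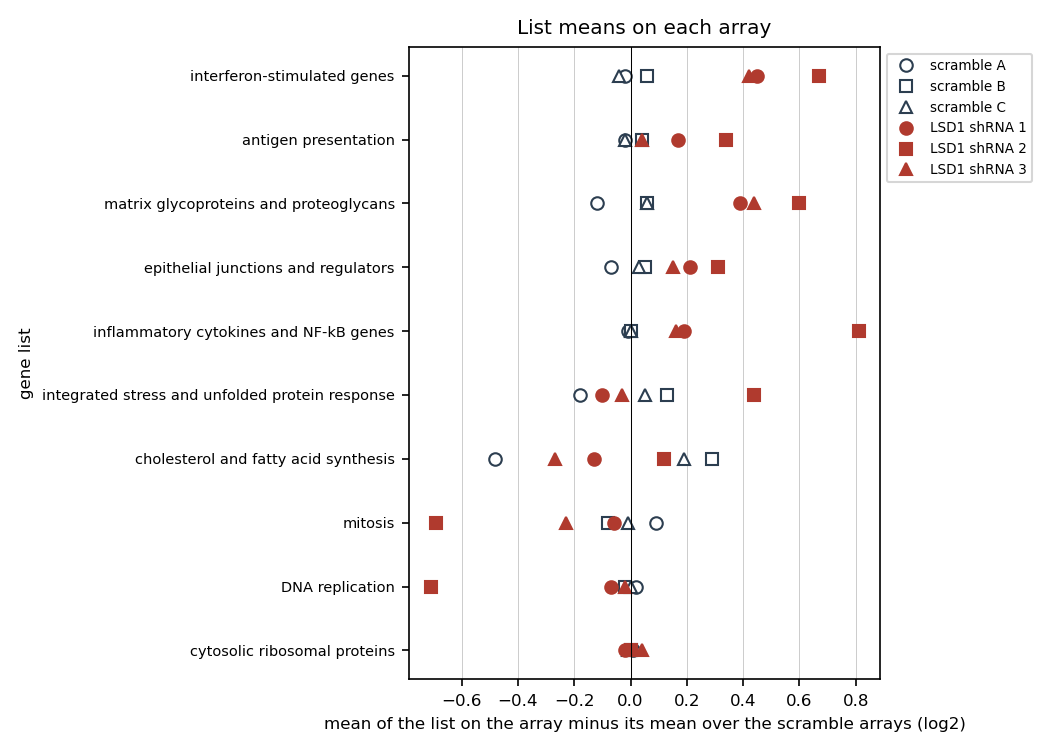
Mean log2 value of 10 gene lists on each array minus the mean over the scramble arrays; open symbols are scramble arrays A, B and C and filled red symbols LSD1 shRNA arrays 1, 2 and 3. In DNA replication and mitosis array 2 (square) lies at -0.71 and -0.69 while arrays 1 and 3 lie between -0.23 and -0.02, and in interferon-stimulated genes all 3 lie between 0.42 and 0.67.

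The genes that fell were unevenly spread over the chromosomes. On chromosome 4, 60 of 453 genes fell (13.2%) and 7 rose (1.55%), whereas on the other chromosomes together 1.56% fell and 2.98% rose. Of the 453, 303 had a negative change (66.9%, compared with 48.3% of all genes). A shift of this kind was not particular to chromosome 4. On chromosome 10, 321 of 451 genes had a negative change, and the median was -0.12, compared with -0.13 on chromosome 4. The 60 decreases on chromosome 4 were mostly moderate, from -0.31 to -1.59 with a median of -0.73. Their medians were -0.70, -0.74 and -0.67 on LSD1 shRNA arrays 1, 2 and 3. These genes had passed a test that favours a small spread within groups, so their likeness between arrays is partly fixed by that choice. Over all 453 genes the medians were -0.15, -0.11 and -0.13 on these arrays. In the order of genes along the chromosome, 29 lay in the first 151 genes, 7 in the next 151 and 24 in the last 151. Genes with unrelated functions that lie near each other were among them, at ranks 67 to 81 in that order. Changes were -1.33 for QDPR, which recycles a hydroxylase cofactor, -1.39 for the aminopeptidase gene LAP3, -1.34 for the mediator subunit gene MED28, -1.44 for the condensin gene NCAPG, -1.09 for the receptor gene ADGRA3 and -1.22 for RBPJ, the Notch pathway effector. Between them SLIT2, an axon guidance ligand gene, and PPARGC1A, a transcriptional coactivator gene, had positive changes of 0.67 and 0.85 that did not pass (adjusted p = 0.0508 and 0.0716), and none of the 7 genes between ADGRA3 and RBPJ passed. QDPR read 11.12, 10.86 and 10.92 with scramble and 9.54, 9.50 and 9.87 with LSD1 shRNA, and its groups lay far apart. Of these 8 genes, all but ADGRA3 were named after their values were seen.

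Genes already described from other lists lie on this chromosome too, namely CTBP1, CCNA2, REST and FAM149A among those that fell and SPP1 among the 7 that rose. Chromosomes 13, 10 and 5 came next in the share of genes that fell, at 7.48%, 5.99% and 4.73%, and chromosome 8 had the largest share that rose, at 6.91%. The number of chromosome 4 genes that fell was 29, 8 and 7 without scramble A, B or C, compared with 14, 73 and 23 without LSD1 shRNA 1, 2 or 3, and in each case the share was higher than on the other chromosomes (6.40% against 0.599%, 1.77% against 0.148%, 1.55% against 0.148%, 3.09% against 0.252%, 16.1% against 2.48% and 5.08% against 0.382%).

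**Figure D5:**
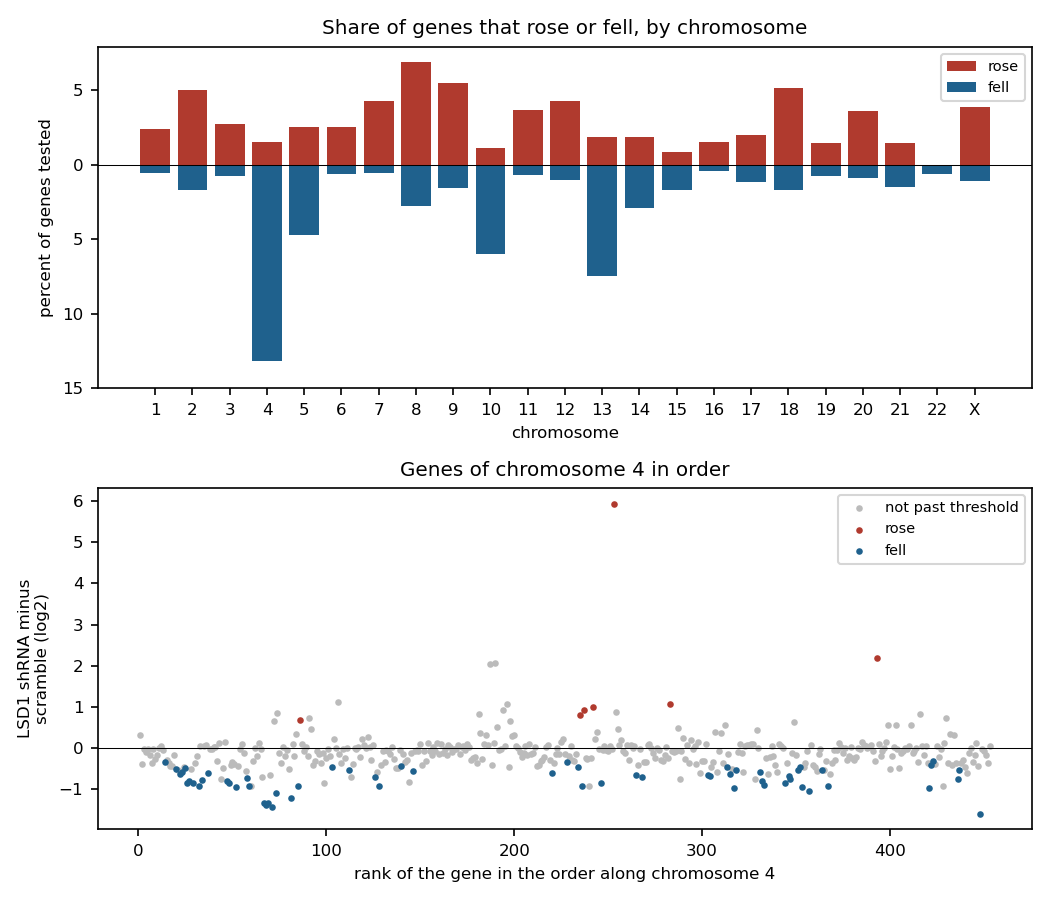
Top: percent of the tested genes of each chromosome that rose (up, red) or fell (down, blue) with LSD1 shRNA. Bottom: change with LSD1 shRNA (log2) of the 453 genes of chromosome 4 against their rank in the order along it; the 60 genes that fell (blue) number 29 among the first 151 genes, 7 among the next 151 and 24 among the last 151.

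HDAC5 shRNA, tested in a separate experiment of the series with its own scramble arrays, served to show which of the leading changes differed between the shRNAs. The difference of the changes, fitted over all 12 arrays, passed for 31.8% of all genes and for 23 of the 24 leading genes, FAM149A being the exception (-0.64, SE 0.28, adjusted p = 0.106). The leading genes were chosen by large changes on the same LSD1 arrays that enter this contrast. Their count is thus largely fixed by that choice and cannot be weighed against the share of all genes. COL3A1, SERPINB7, SPP1, TSPAN8, EPB41L3, IFI44L and NTS changed by between -0.01 and 0.21 with HDAC5 shRNA. IL13RA2 fell there by 1.68 on the log2 scale (SE 0.25), from 6.95, 7.27 and 6.60 to 4.90, 5.36 and 5.52, and RGS7 changed by -0.91 (SE 0.23), while DHRS2 and REEP1 rose by 0.81 (SE 0.19) and 1.07 (SE 0.10). All 4 thus went the other way from their change with LSD1 shRNA. ATP10A (-0.49, SE 0.10), NRP1 (-0.64, SE 0.20) and PER2 (-0.58, SE 0.13) fell with HDAC5 shRNA too, by less than with LSD1 shRNA, and FAM149A also fell there (-0.95, SE 0.20). The scramble sets also differed in level: ADGRF5 read 11.43, 11.37 and 11.45 on the untagged scramble arrays, within the range of 10.47 to 12 seen with LSD1 shRNA, against 5.82 to 7.75 on the scramble arrays A, B and C. IL13RA2 was likewise higher on the untagged scramble arrays, at 6.60 to 7.27 against 3.11 to 3.78 on A, B and C. DHRS2 was lower there, at 6.96 to 7.23 against 8.95 to 9.21. Whether both experiments were processed together is not known here, so such levels were set side by side without a test.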

How the data were processed

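Total RNA of 6 MDA-MB-231 samples was read on Affymetrix human expression arrays, 1 array per sample. The authors deposited log2 values, 1 per probe set and array, made with RMA in the affy package per the submitters' processing notes. The sources used here give neither versions nor whether all 12 arrays were processed at once. RMA equalises array distributions, so a shift shared by most transcripts is lost, and it compresses ratios at low signal. Of 22277 probe sets, 62 are controls, 19064 have 1 symbol, 1043 several and 2108 none in the platform annotation. RefSeq names of GRCh38.p14, matched by gene ID, replaced the symbols of 19052 probe sets, and 12 kept theirs. Each of 11963 genes was read from its brightest probe set, judged by the mean of all 12 arrays, with no filter on low values.

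The 3 LSD1 shRNA arrays were compared with the 3 scramble arrays tagged for LSD1 with limma 3.58.1 in R 4.3.3 (lmFit and eBayes, trend on). A gene was called changed where its p, adjusted by Benjamini-Hochberg over all 11963 genes, was under 0.05; SE is limma's moderated standard error. The difference from HDAC5 shRNA was a contrast over all 12 arrays; the untagged scramble set was taken as its control by elimination. RMA's median polish left equal values on at least 2 of the 6 arrays in 7429 probe sets, and 184 genes were identical on all 3 arrays of a group, of which 0 were called. The number of arrays limits the precision.

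The genes named are KDM1A, the 12 largest increases and 12 largest decreases among changed genes whose arrays do not overlap, up to 6 changed members per list with the largest change (the 2 largest as values where fewer than 2 changed), and the 4 replication, mitosis and LSD1-CoREST genes each with the widest spread between LSD1 shRNA arrays. The comparison, the 43 gene lists and this rule were chosen with earlier results of these data known. Alternatives covered the fit, array weights, the choice of probe set, dim genes, normalization and leaving out arrays. The fit was tested on simulated data.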

Additional observations from a re-analysis of the deposited data

Results flagged for a closer look

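For 23 of the 24 leading genes the change with LSD1 shRNA differed from the change with HDAC5 shRNA in the contrast over all 12 arrays (limma adjusted p under 0.05, which 31.8% of all genes passed). The difference, LSD1 minus HDAC5 in log2, was 10.05 for IL13RA2, which fell with HDAC5 shRNA. It was 6.89 for COL3A1, 6.40 for SERPINB7, 5.80 for SPP1, 5.41 for ADGRF5, 5.35 for TSPAN8, 5.17 for RGS7 and 5.12 for EPB41L3. IFI44L differed by 4.51, RNF128 by 4.36, NTS by 4.25 and SELENOP by 4.11. Among the genes that fell with LSD1 shRNA the difference was -3.93 for SERPINB9, -3.32 for CDH11, -3.09 for KDM1A, -3.07 for DHRS2 and -2.88 for REEP1. It was -2.07 for SLC2A10, -1.93 for CAMTA1, -1.49 for ATP10A, -1.38 for IGFBP2, -1.24 for NRP1 and -1.01 for PER2. These genes were chosen by their change with LSD1 shRNA, on arrays that also enter the contrast, so the number that passed is largely fixed by that choice. The sizes describe the chosen genes and not a typical gene.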

How the results depend on the processing

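The KDM1A change stayed between -3.01 and -3.21 and passed under every alternative run, and the number of leading genes that differed from HDAC5 shRNA was 23 or 24 in the 4 alternatives run for it. The number of changed genes was 2297 with all 12 arrays in 1 fit, 2053 with array weights, 116 without scramble B and LSD1 shRNA 2 together, and 104 to 786 with single arrays left out. Genes that rose numbered 1281, 1107, 78 and 80 to 428 in these settings, genes that fell 1016, 946, 38 and 24 to 358, and chromosome 4 genes that fell, an alternative added after seeing the data, 138, 138, 6 and 7 to 73. The other settings gave totals of 583 to 692, among them the removal of genes with identical values in a group, also added after seeing the data (622). Fewer arrays leave fewer degrees of freedom; the cause of the higher counts was not tested. No named gene that was called changed sign, and the signs of called genes that are not named were not compared. CCNE2 (-0.27), CDC25A (-0.33), RPLP2 (0.62) and HMG20B (-0.01), none of them called, did: CCNE2 was 0.14 with array weights, 0.26 without LSD1 shRNA 2 and 0.25 without scramble B too, CDC25A 0.11 and 0.07 in the latter settings, RPLP2 -0.04 without LSD1 shRNA 3, and HMG20B 0.02 to 0.12 without scramble A or LSD1 shRNA 1 or 3. The medians of 23 gene lists, all within 0.14 of 0, changed sign under at least 1 setting. No paired analysis was possible because scramble replicates carry letters and LSD1 shRNA replicates carry numbers. Signal near background limits the sizes of the largest changes.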

Other observations

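Beyond the named genes, further genes rose, most of them by at least 4-fold, and are chosen here after their values were seen. AOX1, the aldehyde oxidase gene, went from a mean of 7.22 to 10.61 (change 3.39, SE 0.15, limma adjusted p = 0.000191), and HSPB8, a small heat shock protein gene, from 6.66 to 9.69 (3.03, SE 0.31). TOX3, a chromatin protein gene (3.59, SE 0.23), DMRT1, a transcription factor gene of the testis (3.14, SE 0.24), and BMP5, a bone morphogenetic protein gene (3.07, SE 0.21), started at means of 2.84, 4.06 and 4.70. HEPH, a copper-dependent ferroxidase gene (3.54, SE 0.40), and SIDT1, a gene of a transmembrane protein linked to RNA uptake (2.23, SE 0.27), are among the 19 risers whose promoters held the interferon element. Genes best known from blood cells were also among the risers: GPR65, a proton-sensing receptor gene (2.92, SE 0.09), LCP1, the plastin gene (2.29, SE 0.35), NCKAP1L (1.97, SE 0.22) and LAT2 (2.15, SE 0.27), whereas 0 of the 18 listed blood cell markers changed, with list means of 0.08, 0.07 and 0.04 on LSD1 shRNA arrays 1, 2 and 3. Among decreases outside the named genes were the insulin receptor gene INSR (-1.40, SE 0.27), BACE2, a beta-secretase family gene (-1.40, SE 0.18), SEPTIN6 (-1.34, SE 0.20), and HTRA1, a secreted protease gene of chromosome 10 (-1.33, SE 0.20).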
